A study of Mus musculus with 24 samples.

Results

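Wild-type mouse induced pluripotent stem (iPS) cells were followed through a doxycycline time course at t=0, day 10 and day 25. They make up 6 of the 24 deposited samples and were chosen by their labels alone. Each of the 3 stages is 1 library that was read on 2 lanes and deposited as 2 columns of methylated calls and coverage, so the 2 columns of a stage were pooled and serve here only as a measure of technical noise. Which column came from which lane is not stated, and if the columns were separate libraries, n would be 2 per stage. Whole-genome sequencing after oxidation and bisulfite conversion was used, in which the oxidation keeps 5-hydroxymethylcytosine from being read as 5-methylcytosine.

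Cultures were kept on feeder cells with serum replacement in the medium. The t=0 cells had seen no doxycycline. The labels place the other stages short after and long after doxycycline, which in the series design correspond to 5 and 20 days after a pulse of 5 days. The design describes that pulse for knock-in cells in which doxycycline induces the microRNA miR-203, and the wild-type labels carry no knock-in. The pulse in the wild type is therefore known only from its labels. The comparison cells were 2 knock-in clones, N5 and N9, with 1 library each at the same stages; each clone is a single line. No untreated wild-type culture of day 10 or day 25 was among the samples, so days in culture, passage and doxycycline cannot be told apart. The day-10 wild-type library ran on lanes 5 and 6 and the t=0 and day-25 libraries on lanes 1 and 2 of the same flow cell, so lane and stage cannot be told apart for day 10 either.

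Cytosine methylation at CpG sites is copied to the new strand at each division by Dnmt1, which Uhrf1 guides to the site, and is laid down anew by Dnmt3a and Dnmt3b. Pluripotent mouse cells in culture can gain or lose methylation with passage and medium, and the marks of imprinted genes are among those known to drift. Gene starts rich in CpGs are mostly free of methylation, while gene bodies and the sequence between genes are mostly methylated. The wild type addresses how far methylation moves over the same weeks in cells that carry no inducible miR-203.

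Wild-type methylation over the autosomes was nearly level across the 25 days. At the 12526381 autosomal CpGs called in all 12 libraries of the series, the level was 60.7% at t=0, 61.4% at day 10 and 61.2% at day 25. The first and second columns gave 60.6% and 60.8% at t=0, 61.4% and 61.4% at day 10, and 61.1% and 61.3% at day 25, so both columns of both later stages lay above both columns of t=0. These are changes of 0.706 and 0.487 points from t=0. The mix of CpGs that were read moved with the stage. CpGs in dense surroundings, with at least 20 CpGs in 500 bp, took 7.38% of calls at t=0, 6.97% at day 10 and 7.11% at day 25, and they are the least methylated. With the calls weighted to the mix of t=0 the changes were 0.413 and 0.267 points, and with every CpG given the same weight they were 0.310 and 0.173 points. Part of the shift in the pooled level therefore came with the mix of calls, and a smaller shift in the same direction was left under both weightings. With equal weight per CpG the columns read 61.07 and 61.40% at t=0 and 61.32 and 61.57% at day 25. The first column of day 25 thus lay below the second column of t=0 under that weighting. There is no replicate wild-type culture to set these changes against.

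The pooled level was higher than at t=0 at both later stages in gene bodies, at gene ends and outside genes. CpGs outside genes stood at 65.8, 66.2 and 66.1% at t=0, day 10 and day 25. Gene bodies stood at 63.0, 63.6 and 63.5%. At CpG-poor gene ends, defined below, the level was 39.3, 40.2 and 39.96%. At CpG-rich gene ends it was 4.59, 4.89 and 4.73%. In all 4 classes the differences from t=0 at both later stages exceeded the widest gap between the 2 columns of a stage, which was 0.0828 points at CpG-rich ends and 0.222 points in gene bodies. This did not hold for CpGs in dense surroundings at day 25, which differed from t=0 by 0.0874 points, less than their column gap of 0.136 points. The levels of these classes were not weighted to the t=0 mix of calls. How much of each difference came with the mix was not tested. A gap between columns covers technical noise only and not the spread between cultures. Unconverted cytosine can add to these values. Mitochondrial CpGs, which are largely unmethylated, read 0.649% (95% Wilson interval 0.606 to 0.696) at t=0, 0.622% at day 10 and 0.641% at day 25. Some gene ends named below read under this, so it is a guide and not a strict floor. Methylation near or under this level cannot be told apart from unconverted cytosine. Intervals cover counting error only, since amplified reads are not independent molecules. The samples are bulk DNA, so a change in the share of cells of a kind and a change of methylation within cells cannot be told apart.

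**Figure D1:**
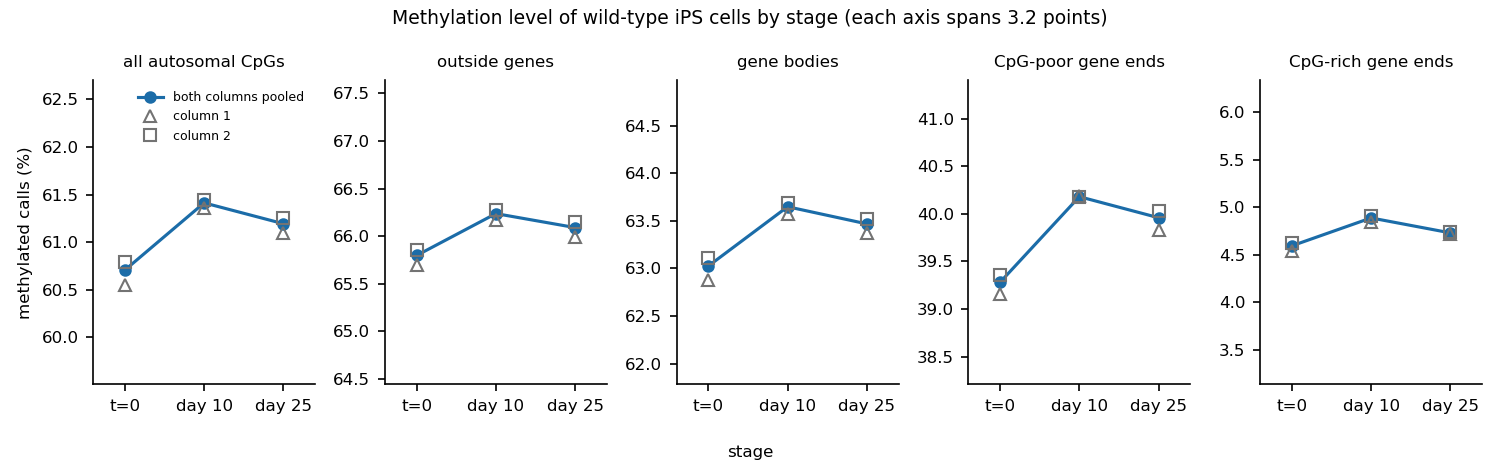
Share of methylated calls in percent (vertical axis, of equal span in every panel and not starting at 0) in the wild type at t=0, day 10 and day 25, for all autosomal CpGs and 4 classes; filled points are both columns pooled, open triangles and squares the single columns. In the pooled level, not weighted for the mix of calls, both later stages lie above t=0 in every panel. CpG-rich gene ends lie between 4.59 and 4.89% and CpGs outside genes between 65.8 and 66.2%.

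The small difference from t=0 in the pooled level was seen on every autosome. All 19 autosomes had a higher level at day 10 than at t=0, by 0.536 points on chromosome 13 to 0.819 points on chromosome 11. All 19 were also higher at day 25 than at t=0, by 0.367 points on chromosome 15 to 0.696 points on chromosome 17. Day 25 lay below day 10 on all 19, by -0.109 points on chromosome 13 to -0.375 points on chromosome 15. No chromosome went against the others, and the 3 comparisons share their libraries. These levels were not weighted to the t=0 mix of calls, and a shift in mix common to a library can move every autosome the same way. How much of each value came with the mix was not tested.

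Among the autosomes, coverage held 1 departure, on chromosome 8, which is known to be gained in cultured mouse pluripotent cells. Calls on the X chromosome, taken over autosomal calls, were 1.013 times their t=0 share at day 10 and 1.023 times at day 25. In the wild type the share of calls on chromosome 8 at day 25 was 1.037 times that at t=0, in the first column 1.038 times and in the second 1.037 times. The other 18 autosomes lay between 0.984 and 1.011 times. It was seen in all 4 equal stretches of chromosome 8, at 1.033, 1.049, 1.039 and 1.033 times, and at CpGs with fewer than 10 neighbours in 500 bp the ratio was also 1.037. At day 10 the ratio was 0.998, within the range of the other autosomes. In wild-type embryoid bodies the ratio to t=0 over all CpGs was 1.004, within the 0.963 to 1.015 of the other 18. In the clones the same ratio at day 25 was 1.026 in N5 and 1.023 in N9. The other 18 autosomes reached at most 1.0195 in N5 and 1.014 in N9. A higher share at day 25 was thus seen in the wild type and in both clones, but not in wild-type embryoid bodies. Calls per CpG on chromosome 8, over the median of the other autosomes and at those sparse CpGs, were 1.01 at t=0, 1.01 at day 10 and 1.049 at day 25. These wild-type values lay within the range of single other autosomes, which was 0.896 to 1.151 at t=0, 0.897 to 1.144 at day 10 and 0.899 to 1.134 at day 25. In the clones the chromosome 8 value was 1.36 (N5) and 1.36 (N9) at t=0 and 1.39 in both at day 25. It was 1.36 in N9 and 1.11 in N5 at day 10, and the N5 library of day 10 ran on the same lanes as the wild-type library of day 10. In embryoid bodies it was 1.38 in N5 and 1.21 in N9, and the N9 library also ran on those lanes. The N5 value of day 10 lay within the 0.916 to 1.128 of the other autosomes in its library. All other clone values lay above that range in their own library. Whether copy number, the mix of cells or a mixing of libraries on those lanes set these values was not tested, and the day-10 values of the wild type and of N5 carry that doubt. Methylation levels are shares of calls, and chromosome 8 itself changed by 0.681 points at day 10 and 0.372 points at day 25, within the range of the other autosomes.

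**Figure D2:**
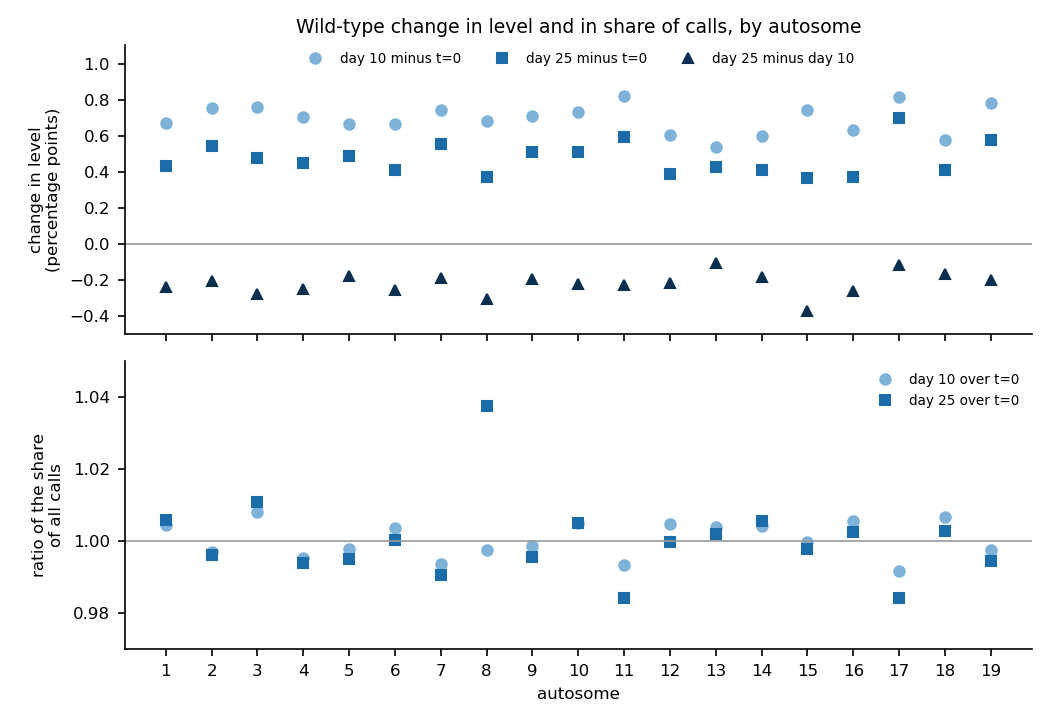
Upper panel, difference in the wild-type methylation level between stages on each of the 19 autosomes, in percentage points; lower panel, share of all calls on each autosome at day 10 and day 25 over that at t=0. In the pooled level, not weighted for the mix of calls, both later stages lie above t=0 on every autosome, by 0.367 to 0.819 points. Chromosome 8 at day 25 lies at 1.037 times its share of calls while the other 18 stay between 0.984 and 1.011.

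To look for local change, the autosomes were divided into tiles of 10000 bp, and 230139 tiles with at least 30 calls in each of the 12 libraries were compared. The median tile changed by 0.379 points from t=0 to day 10, by 0.209 points from t=0 to day 25 and by -0.187 points from day 10 to day 25. Of the tiles, 53.5% were higher at day 10 than at t=0 and 51.8% were higher at day 25 than at t=0. The standard deviation of tile changes was 4.95, 5.24 and 5.25 points in the 3 comparisons. Counting error alone, from the number of calls in each tile, gives 4.18, 4.44 and 4.43 points. The variance was thus 1.40, 1.39 and 1.40 times that of counting. Between the 2 columns of one stage, where the cells are the same, this ratio was 1.29 (t=0), 1.29 (day 10) and 1.297 (day 25). In points, the spread beyond counting was 3.37, 3.30 and 3.75 between the columns of t=0, day 10 and day 25. Between stages it was 2.65, 2.79 and 2.82. Single columns have lower depth than pooled stages, so these values are not on equal terms. An excess over counting was thus also present between columns of one stage, and in points it was no smaller.

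Tiles with a large difference in the first column did not show it in the second. The changes seen by the first column and by the second column had a Pearson correlation of 0.0438 for day 10 against t=0, 0.0405 for day 25 against t=0 and 0.0431 for day 25 against day 10, over 230138 tiles or more. From t=0 to day 25, 3541 tiles differed by more than 20 points upward in the first column. Their median was 23.7 points there and 0.515 points in the second column. For day 10 against t=0, 3054 such tiles had a median of 23.8 points in the first column and 0.981 points in the second. The correlation of a tile's change with that of the next tile was 0.00278 at day 10 and 0.00464 at day 25. In clone N9 from t=0 to day 25, measured the same way, it was 0.0764. Those correlations are across tiles of 1 library each and are descriptions, since tiles of a library share its depth.

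Small shifts of the median differed by kind of tile. Tiles with a mean level of 20 to 40% had a median change of 1.055 points at day 10 and 0.623 points at day 25. In tiles at 60 to 80% it was 0.290 and 0.142 points. Tiles with no gene within 100 kb changed by 0.208 points at day 10 and by -0.119 points at day 25, and tiles with fewer than 50 CpGs by 0.256 and -0.133 points, so at day 25 both kinds lay on the other side of 0. A tile's level can sit between the extremes because CpG-dense and CpG-poor stretches share it, and the mix of calls moved with the stage as given above.

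**Figure D3:**
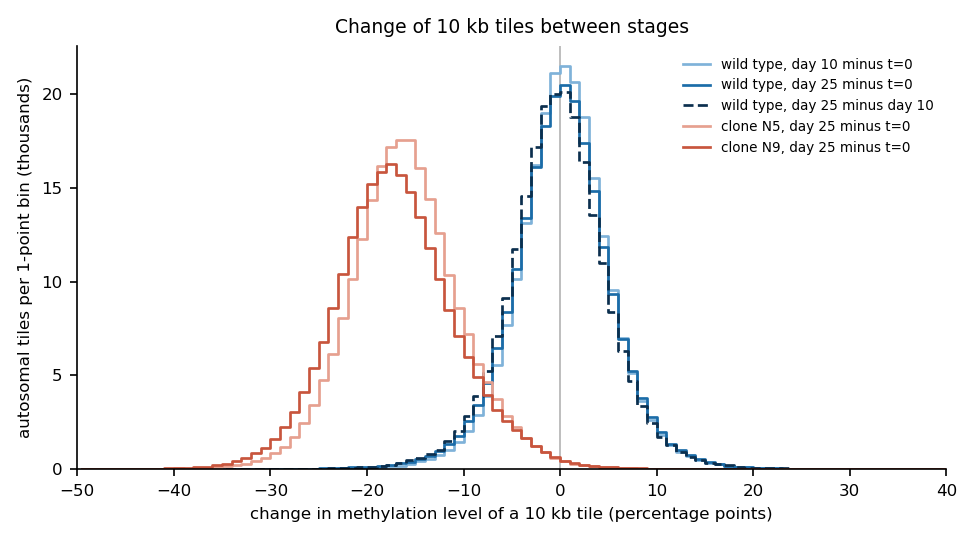
Number of autosomal tiles (vertical axis, divided by 1000, in bins of 1 point) by their change in methylation level in percentage points, for the 3 comparisons of wild-type stages and for clones N5 and N9 from t=0 to day 25. The wild-type medians are 0.379, 0.209 and -0.187 points, and those of clones N5 and N9 are -16.2 and -17.3 points.

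No tile passed the test between wild-type stages. Methylated and unmethylated calls of all 12 libraries were fitted with edgeR's quasi-likelihood F test, with p values adjusted by Benjamini and Hochberg and a threshold of 0.05. As the wild type has 1 library per stage, the spread comes from the clones, and p values measure the spread between clones of a stage. The test called 0 of 230139 tiles (0.0%) for day 10 against t=0, 0 (0.0%) for day 25 against t=0 and 0 (0.0%) for day 25 against day 10. At an unadjusted p under 0.05 it gave 7828 (3.4%), 8465 (3.68%) and 8541 (3.71%) tiles. Limma on logit values called 1, 1 and 0 tiles, and the 6 wild-type columns fitted alone called 2, 0 and 0.

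These few tiles are named after their values were seen. Limma's tile is the same in both comparisons, chr3:140020001-140030000 in mm10, over the microRNA gene Mir7j; it read 100% at t=0, 83.7% at day 10 and 84.2% at day 25 from 40, 49 and 38 calls, with limma's adjusted p at 0.0261 and 0.0283 and edgeR's at 1.0. One tile of the 6-column fit, chr7:92670001-92680000, overlaps Pcf11, a factor that cleaves and ends transcripts. Its columns read 17.0 and 27.1% at t=0, 45.2 and 44.1% at day 10 and 38.2 and 39.2% at day 25. The other, chr3:40540001-40550000 over Intu, a planar polarity gene needed for cilia, read 47.6 and 54.4% at t=0, 22.8 and 33.5% at day 10 and 41.8 and 42.9% at day 25. In both tiles the later columns did not overlap those of t=0. The fit on these same columns picked both tiles, so this follows in part from that choice. The adjusted p values of that fit were 0.0210 and 0.0313, and it takes 2 columns of a library as replicates, which makes its p values too small if they are lanes.

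Gene ends, like tiles, differed little between stages. A gene end is here the sequence within 1000 bp of whichever boundary of a gene holds more CpGs. Since the annotation gave no strand, some of these windows cover 3' ends. Of the 18805 autosomal ends with 5 or more CpGs called in all libraries and 10 or more calls in each, 78.3% changed by less than 5 points from t=0 to day 10 and 76.9% from t=0 to day 25. Between the 2 columns of t=0 this share was 70.5%, at lower depth. The median change was 0.167 points at day 10 and 0.0829 points at day 25. By any amount, 54.2% of ends were higher and 45.3% lower at day 10 than at t=0, and 52.2% were higher and 47.2% lower at day 25. Against day 10, 47.5% were higher and 51.9% lower at day 25. A change of more than 10 points in either direction was seen in 1328 ends (7.06%) at day 10 and 1493 ends (7.94%) at day 25, and in 1651 ends (8.78%) between day 10 and day 25. CpG-rich ends, with at least 60 CpGs, varied least: their changes at day 25 had a standard deviation of 2.71 points against 7.89 points at the CpG-poor ends.

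Among gene ends, edgeR's test called 0 of 18805 (0.0%) for day 10 against t=0, 0 (0.0%) for day 25 against t=0 and 0 (0.0%) for day 25 against day 10. Unadjusted, 758 (4.03%), 830 (4.41%) and 825 (4.39%) ends had a p under 0.05. Limma called 0 in each comparison, with 895, 1087 and 1020 ends at an unadjusted p under 0.05. The 6 columns fitted alone called 0 in each as well, with 847, 909 and 921. Every gene named below is therefore given by its values, and none of its changes within the wild type passed the test. List members with the lowest p were picked from these same calls, so columns that stand apart follow in part from that choice. How many of all ends have such columns was not counted. The adjusted p of edgeR was 1.0 for each of them at day 10 against t=0. A p that misses the threshold does not show that a level stayed the same.

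Genes used in meiosis and germ cells included Syce1, the end with the lowest p among the named genes for day 25 against t=0. Their promoters are known to be methylated and silent in most cells outside the germ line. All 28 listed germline genes were measured, with a median level of 47.9% at t=0, 50.8% at day 10 and 46.9% at day 25. From t=0 to day 25, 14 were higher and 14 lower, with a median change of 0.276 points beside 0.0829 points over all ends. Changes past 10 points were seen in 6 of the 28 (21.4%), beside 7.94% of all ends and 16.8% of CpG-poor ends. At an unadjusted p under 0.05 there were 2 (7.14%), beside 4.41% of all ends.

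Syce1, a part of the central element of the synaptonemal complex that joins chromosomes in meiosis, read higher at each stage. Its window, chr7:140786854-140788854 with 50 CpGs, spans the gene's start. The first column read 7.27% at t=0, 34.4% at day 10 and 32.5% at day 25, and the second read 11.8, 14.0 and 47.1%. Pooled, the level was 9.89% (6.84 to 14.1) from 263 calls, 18.3% (13.0 to 25.2) from 153 calls and 39.5% (31.9 to 47.5) from 147 calls. Both columns of day 25 lay above both of t=0, while the columns of day 10 lay far apart. With an unadjusted p of 2.27e-05 for day 25 against t=0 it had an adjusted p of 0.228 by edgeR, and between 0.0889 and 0.541 over the 15 settings tried. The clones went the other way, from 25.2 to 8.73% in N5 and from 26.1 to 6.15% in N9.

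The 250 bases before the start show where these calls fall. Of the 27 promoters of named genes, 5 had at least 50 calls at each stage and no other gene over them. The 3 with the widest difference between day 25 and t=0, and Eef2, which shares the next place with Hells at 0 points and stands for a promoter without methylated calls, are printed 5' to 3' on the strand of the gene, from RefSeq on GRCm38.p6, with every CpG in capitals, because CpGs are the only bases that were scored. Syce1 lies at chr7:140787855-140788104 on the minus strand, Otx2 at chr14:48667509-48667758 on the minus strand, Ddx4 at chr13:112652311-112652560 on the minus strand and Eef2 at chr10:81176381-81176630 on the plus strand.
Syce1: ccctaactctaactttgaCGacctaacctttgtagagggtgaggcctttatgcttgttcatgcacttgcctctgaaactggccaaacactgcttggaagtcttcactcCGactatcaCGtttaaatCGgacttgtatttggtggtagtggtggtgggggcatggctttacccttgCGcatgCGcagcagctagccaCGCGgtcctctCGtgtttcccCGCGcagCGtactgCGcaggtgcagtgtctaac
Otx2: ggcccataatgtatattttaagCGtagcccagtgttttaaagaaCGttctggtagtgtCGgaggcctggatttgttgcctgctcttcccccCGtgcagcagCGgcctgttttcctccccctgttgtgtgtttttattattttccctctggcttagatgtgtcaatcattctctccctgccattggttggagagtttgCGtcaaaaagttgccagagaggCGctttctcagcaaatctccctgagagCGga
Ddx4: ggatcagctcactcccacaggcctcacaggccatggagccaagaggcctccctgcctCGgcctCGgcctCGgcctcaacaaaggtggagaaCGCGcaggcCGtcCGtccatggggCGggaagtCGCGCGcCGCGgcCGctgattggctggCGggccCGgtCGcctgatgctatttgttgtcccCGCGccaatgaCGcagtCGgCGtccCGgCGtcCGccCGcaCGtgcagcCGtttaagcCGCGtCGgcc
Eef2: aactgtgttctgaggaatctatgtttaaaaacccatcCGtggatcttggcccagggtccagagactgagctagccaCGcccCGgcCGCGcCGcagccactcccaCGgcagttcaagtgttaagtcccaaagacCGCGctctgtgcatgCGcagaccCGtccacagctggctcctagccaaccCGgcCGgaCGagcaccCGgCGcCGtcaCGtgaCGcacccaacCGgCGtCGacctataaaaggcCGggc

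In the printed Syce1 stretch there are 13 CpGs, and 32.1% of the 31396 promoters in the table have as many or more; the median promoter has 6. Its level was 7.85% (4.82 to 12.6) of 191 calls at t=0, 14.3% (8.99 to 22.0) of 112 at day 10 and 39.2% (30.1 to 49.1) of 97 at day 25. The first column read 7.06, 21.1 and 35.1% and the second 8.49, 12.9 and 45.0%, so both columns of each later stage lay above both of t=0. This stretch is part of the window above and adds no independent evidence. The Ddx4 stretch, far denser with 31 CpGs, read 6.10% of 82 calls, 37.1% of 70 calls and 11.8% of 85 calls. At day 10 its columns read 22.0 and 75%, so the day-10 value rests largely on the second column, which held 20 calls. Otx2, with 8 CpGs, read 7.53% of 93 calls, 5.10% of 98 calls and 19.4% of 72 calls. Eef2, a translation elongation factor with 23 CpGs, had 0 methylated calls of 131, 106 and 83, which allows up to 2.29, 2.83 and 3.61%.

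Other germ cell genes differed in direction. Dazl, an RNA-binding protein of germ cells, read 39.6% at t=0, 33.3% at day 10 and 17.3% at day 25. Its columns were 28.6 and 50%, then 28.9 and 36.7%, then 23.8 and 12.5%, so the day-25 columns lay below those of t=0. Ddx4, the germ cell helicase also called Vasa, read 25.2, 47.0 and 38.8% over its whole window, with columns of 29.0 and 67.2% at day 10. The window of Sycp3, a lateral element protein, read 58.5, 54.0 and 55.6%, and that of Dpep3, a testis dipeptidase, 85.6, 89.5 and 83.9%. Germ cell genes as a group thus held a spread of levels from 9.08 to 83.9% at day 25 with no shared direction.

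**Figure D4:**
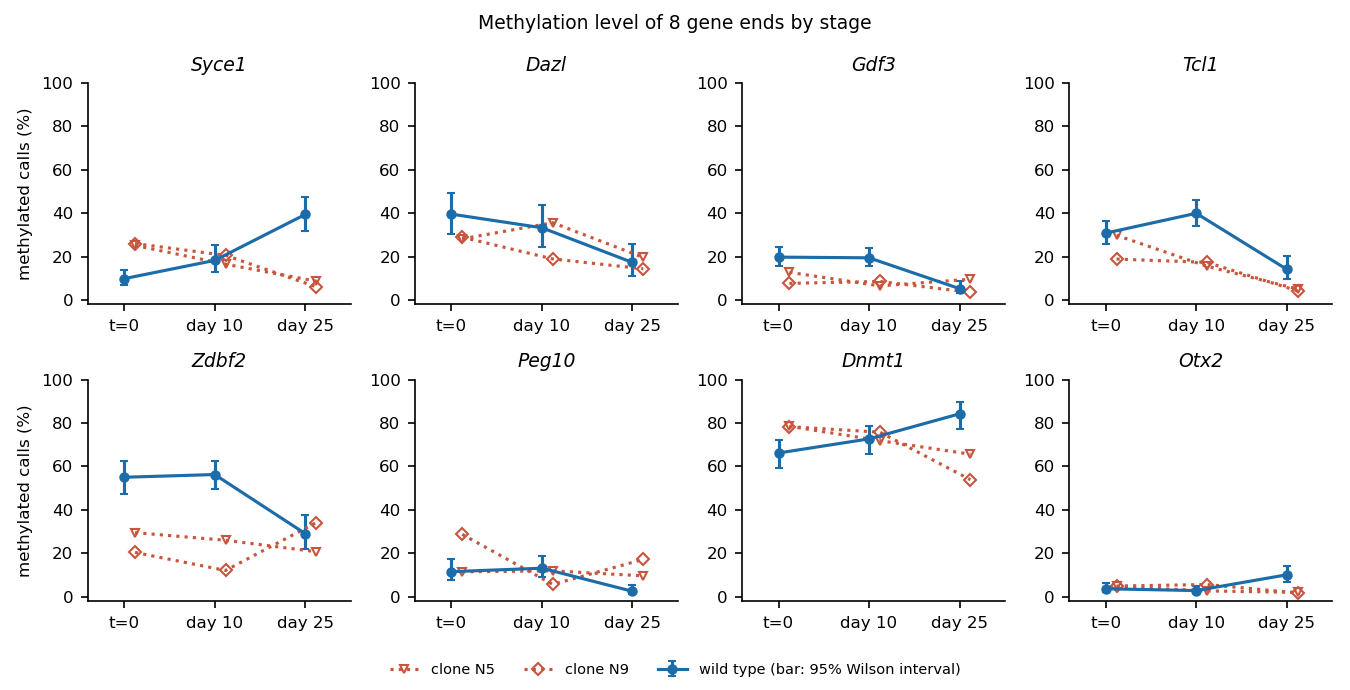
Methylation level in percent at 8 gene ends in the wild type, with 95% Wilson bars, and in clones N5 and N9 (dotted), at t=0, day 10 and day 25. Syce1 goes from 9.89 to 39.5% and Dnmt1 from 66.2 to 84.2% in the wild type, while Gdf3 goes from 19.8 to 5.28% and Zdbf2 from 55.0 to 29.0%.

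Genes of the pluripotency network are known to carry little methylation at their starts in cells that use them. The 24 measured genes had a median level of 12.3% at t=0, 11.9% at day 10 and 5.50% at day 25, beside 8.09, 8.60 and 8.41% over all ends. By day 25, 9 were higher than at t=0 and 15 lower, with a median change of -0.426 points. Of the 24, 4 (16.7%) changed by more than 10 points, beside 7.94% of all ends, 16.8% of CpG-poor ends and 1.09% of CpG-rich ends. At an unadjusted p under 0.05 there were 2 (8.33%) at day 25 against t=0 and 5 (20.8%) at day 25 against day 10, beside 4.41 and 4.39% of all ends. Sox2, a core factor of the network, read 1.42, 0.626 and 0.420% over 159 CpGs. Pou5f1, which encodes Oct4, read 14.1% (10.7 to 18.3), 12.5% and 19.8% (15.3 to 25.3). Nanog, a homeobox factor that stabilises the naive state, read 12.5, 15.8 and 10.2%. For these 3 core factors the intervals of t=0 and day 25 overlapped.

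Gdf3, Tcl1 and Tdgf1 had the lowest p values on that list, and all 3 read lower at day 25 than at t=0. Gdf3, a ligand of the TGF-beta family that pluripotent cells secrete, read 19.8% of 308 calls, 19.5% of 354 calls and 5.28% of 246 calls. Its columns were 24.4 and 18.02%, then 18.8 and 19.9%, then 1.33 and 7.02%, so the day-25 columns stood apart from the other 4. Tcl1, a co-activator of Akt, read 30.9, 40 and 14.2%, but its first column read 24.6% at t=0 and 25.0% at day 25, so the difference lay in the second, at 36.1 and 9.40%. Tdgf1, a co-receptor of Nodal, read 12.0, 14.7 and 5.57%, with columns of 3.06 and 20.4% at t=0. Dppa4, which marks pluripotent cells, went the other way at 27.2, 34.2 and 37.5%, a wider difference than that of Tdgf1. At Tcl1 the clones went from 29.9 to 5.12% in N5 and from 18.9 to 4.25% in N9 by day 25. Clone levels fell widely over that time, so this is not particular to Tcl1. Their median change was -3.73 points over all ends, -14.4 points over CpG-poor ends and -4.26 points over this list.

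The genes that write, copy and erase methylation were mostly unmethylated at all 3 stages. The 21 members had a median level of 3.27, 4.16 and 3.36%, with 6 higher and 15 lower from t=0 to day 25, a median change of -0.433 points and 4 (19.05%) at an unadjusted p under 0.05. Over all ends 52.2% were higher, 47.2% lower and 4.41% at such a p. Uhrf1 read 3.27, 1.98 and 1.99%, and Dnmt3b read 8.82, 4.98 and 7.14%. Tet1, which oxidises 5-methylcytosine, read 2.72, 1.022 and 1.73%. Dnmt1 had the lowest p of the list. Its window, chr9:20906206-20908206, does not contain a listed start, and read 66.2% (59.4 to 72.3) at t=0, 72.7% (65.6 to 78.8) at day 10 and 84.2% (77.1 to 89.4) at day 25. The columns were 73.7 and 63.3%, then 73.9 and 71.8%, then 88.4 and 82.2%, so those of day 25 lay above the rest.

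In the same group Dnmt3a, also away from a start, read 68.8, 65.3 and 59.3%. Hells, a chromatin remodeller needed for methylation of repeats, read 3.09% (1.99 to 4.77), 7.62% (5.69 to 10.1) and 7.98% (5.77 to 10.9). Mbd2, which binds methylated CpGs, read 11.8, 12.2 and 27.8% from 144, 82 and 54 calls. Mir203, the microRNA that the knock-in expresses, read 8.15% (6.13 to 10.8), 12.4% (9.36 to 16.3) and 11.3% (8.12 to 15.5) in the wild type. Its day-10 columns read 30.6 and 7.66%, so that its day-10 value depends on the first.

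Imprinted genes carry methylation on the allele of one parent at their control regions. Of 48 listed genes 45 were measured, with a median level of 17.9% at t=0, 15.1% at day 10 and 19.2% at day 25. From t=0 to day 25, 23 were higher and 22 lower, the median change was 0.142 points, and 4 (8.89%) changed by more than 10 points, beside 7.94% of all ends. Between day 10 and day 25, 7 (15.6%) did, beside 8.78% of all ends, 18.7% of CpG-poor ends and 1.14% of CpG-rich ends. Kcnq1ot1, the antisense RNA of the Kcnq1 domain, read 47.8, 51.7 and 53.5%. Mest, expressed from the paternal allele, read 46.7, 46.3 and 49.6%. H19, a non-coding RNA expressed from the maternal allele, read 40.9, 45.5 and 37.8%. Peg3, a paternally expressed zinc finger gene, read 19.9, 23.2 and 20.4%. None of these 4 genes differed by more than 10 points between stages.

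Zdbf2, expressed from the paternal allele, read 55.0% (47.3 to 62.5) at t=0, 56.2% (49.7 to 62.6) at day 10 and 29.0% (21.8 to 37.6) at day 25. Its first column read 44.3, 71.0 and 52.4% and its second 61.6, 49.7 and 17.1%, so the first column did not share the direction. Peg10, a gene derived from a retrotransposon and needed for the placenta, read 11.5% (7.50 to 17.3), 13.1% and 2.48% (1.14 to 5.30). Its first column read 0% at both t=0 and day 25, so the difference lay in the second, at 14.6 and 3.61%. The window of its neighbour Sgce overlaps that of Peg10 and repeats it at 12.5, 12.9 and 3.35%, with 0% in the first column at all 3 stages. Peg13, a non-coding RNA within Trappc9, read 24.9, 44.7 and 32.4%, and Plagl1, a zinc finger gene, read 36.9, 20.0 and 32.2%. In both the day-25 value lay nearer to t=0 than the day-10 value did.

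The Hox clusters, which pattern the body axis and are held free of methylation in pluripotent cells, had no change past 10 points from t=0 to day 25. Such changes were seen in 7.94% of all ends and only 1.09% of CpG-rich ends. From t=0 to day 10 there was 1 of 39 (2.56%), beside 7.06% of all ends and 0.923% of CpG-rich ends. This was Hoxd4, named after its values were seen, which read 62.1, 49.6 and 55.6%. All 39 genes were measured, with a median level of 6.18, 5.04 and 7.27%. At day 25, 21 were higher than at t=0 and 18 lower, with a median change of 0.403 points and 4 (10.3%) at an unadjusted p under 0.05, beside 4.41% of all ends. Hoxa5 read 4.93% (3.67 to 6.60), 6.77% (5.12 to 8.92) and 11.1% (8.68 to 14.1) over 139 CpGs. Its columns were 8.37 and 3.40%, then 7.14 and 6.49%, then 11.8 and 10.6%, those of day 25 the highest. Hoxa13 read 0.855, 2.90 and 8.93% from 117, 69 and 56 calls. Hoxb2 went the other way at 2.77, 2.47 and 0.538%.

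Genes of the 3 germ layers had no shared direction either. The 19 neuroectoderm genes had medians of 1.23, 1.596 and 0.885%, with 9 higher and 10 lower at day 25. None changed past 10 points, beside 7.94% of all ends and 1.09% of CpG-rich ends. Otx2, a homeobox gene of the forebrain and of primed pluripotent cells, read 3.65, 2.81 and 10.1%, and carries the promoter printed above. Among 21 mesoderm and heart genes 12 were higher and 9 lower. Changes past 10 points were seen in 5 (23.8%), beside 7.94% of all ends, 16.8% of CpG-poor ends and 1.09% of CpG-rich ends. Tbx6, of the presomitic mesoderm, read 11.5, 11.3 and 23.0%, Actc1, the cardiac actin, 73.2, 78.6 and 87.9%, and Tbx5, a T-box factor of the heart and forelimb, 51.5, 41.9 and 35.9%. Of 17 endoderm genes 11 were higher and 6 lower. Apoa1, the main protein of high-density lipoprotein, read 17.1% (14.0 to 20.7), 16.1% and 9.79% (7.30 to 13.0). Of 14 haematopoietic and endothelial genes 8 were higher and 6 lower, and Pecam1, an adhesion protein of endothelium, read 65.8, 69.7 and 80%. Of 14 measured trophoblast genes 6 were higher and 8 lower, with Tpbpa, a marker of the spongiotrophoblast, at 78.9, 70.2 and 66.7%.

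Feeder fibroblasts could add their DNA to each library, so markers of fibroblasts were set beside the rest. Of 25 listed genes 23 were measured, with a mean level of 24.3% at t=0, 25.2% at day 10 and 25.5% at day 25 and medians of 12.4, 12.3 and 9.57%. At day 25, 10 were higher and 13 lower than at t=0. Col1a1, the main fibrillar collagen, read 20.1, 11.3 and 8.68%, while Postn, a matrix protein, read 51.8, 69.6 and 81.8%. Twist1, a mesenchymal factor, read 0.875, 0.365 and 0%, the last from 253 calls. The list had no shared direction; what share of the DNA came from feeders was not tested.

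The 15 housekeeping genes had the lowest medians of the 13 lists, 1.03, 0.939 and 0.356%. Their means, 8.63, 8.68 and 8.11%, lay above the 1.82, 1.87 and 2.12% of the neuroectoderm genes. At day 25, 7 were higher and 7 lower than at t=0, and Gapdh, an enzyme of glycolysis, read 0.282, 0 and 0%. Actb, the cytoplasmic actin, had a window away from its start and read 26.8, 24.4 and 16.5%. Of 23 genes of the mitochondrial stress response 15 were higher and 8 lower, around medians of 2.37, 3.75 and 2.09%, and Phgdh, the first enzyme of serine synthesis, read 2.59, 4.26 and 6.15%. No member of any of the 13 lists passed edgeR's test in any of the 3 comparisons.

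**Figure D5:**
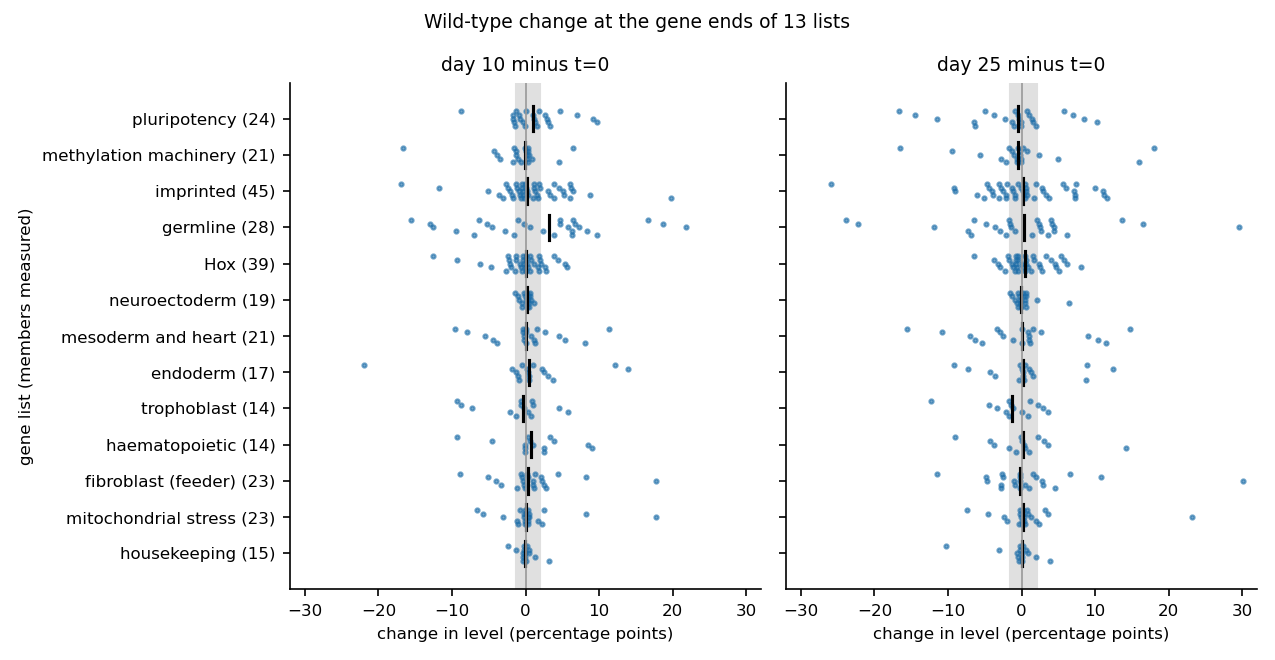
Change in methylation level of each measured member of 13 gene lists in the wild type, in percentage points, for day 10 and day 25 against t=0; black bars are medians and the grey band is the middle 50% of all ends. List medians stayed between -1.33 and 3.15 points.

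The widest changes are given next for gene ends with at least 20 CpGs whose 2 columns moved the same way, and several rest on few calls. Between t=0 and day 25, Rpl34-ps1, a ribosomal protein pseudogene, went from 38.1% of 118 calls to 70.6% of 68 calls, through 52.3% at day 10. The window of Septin11, a cytoskeletal GTPase, read 39.5, 71.4 and 78.9% from 43, 35 and 19 calls. Zfp951, a zinc finger gene, read 23.1, 42.9 and 55.2%. In the lower direction LOC108167320 read 73.7, 42.4 and 15.4% from 19, 33 and 13 calls, Olfr38, an olfactory receptor gene, 75, 55.3 and 26.1%, and Cyp2ab1, a cytochrome P450 gene, 90.3, 73.2 and 52.6%. In each of these 6 genes the day-10 value lay between those of t=0 and day 25. That order follows in part from picking the widest differences between t=0 and day 25, so it does not show a gradual change. Reads of Rpl34-ps1 and Olfr38 can be shared with near-identical copies, so their levels are uncertain.

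Other wide differences involved day 10. Nat8, an acetyltransferase gene with close paralogs, read 22.6, 65.2 and 13.3% from 31, 23 and 15 calls. Rpl32l read 51.7, 86.2 and 65.6%, and Gal3st2c, a sulfotransferase gene, 63.3, 90.0 and 55.0%. Glrx, a glutaredoxin, read 75.9, 40 and 66.7%, and Tdo2, which degrades tryptophan, 84.4, 52.5 and 58.7%. Between day 10 and day 25 Mia2, of the secretory pathway, went from 32.4 to 72.2%, Pdss2, of coenzyme Q synthesis, from 43.6 to 77.3%, Cavin2, a caveolar coat protein, from 26.3 to 59.1% and Mettl7a3, a methyltransferase-like gene, from 50 to 14.3%. The lowest adjusted p in that comparison was 0.920 by edgeR.

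The knock-in clones were measured over the same weeks. From t=0 to day 25 the median tile changed by -16.2 points in N5 and -17.3 points in N9, against 0.209 points in the wild type. Of the tiles, 216558 (94.1%) passed in the clones. The difference between the clones' change and that of the wild type passed in 149752 tiles (65.1%) at day 25, of which 149739 had the lower change in the clones and 13 the higher. At day 10 the clones' median tile had changed by -4.70 (N5) and -4.31 (N9) points and 21951 tiles (9.54%) passed in the clones, but the difference from the wild type passed in 4 (0.00174%). Leaving out the N9 library of day 10 raised that count to 1685, and leaving out the N5 library of day 10 lowered it to 0.

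At gene ends the difference passed in 463 (2.46%) at day 25, all with the lower change in the clones, and in 1 (0.00532%) at day 10. The day-25 count fell when either clone library of day 25 or either clone library of t=0 was left out. Each such fit leaves 1 clone library at that stage, so the weight of a library and the loss of a replicate cannot be told apart. The clones alone had 7621 ends (40.5%) at day 25 and 8 (0.0425%) at day 10. Among the genes named here, 6 were in the 463: Syce1, Dnmt1, Pecam1, Actc1, Hoxa5 and Rpl34-ps1. All 6 read higher at day 25 than at t=0 in the wild type and lower in both clones, and their values and tests are given among the results for a closer look.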

How the data were processed

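DNA methylation was read at CpGs in wild-type iPS cells at 3 stages. Per the submitters' processing notes, BWA, Picard 1.91 and build mm10 were used; for the calling of methylation the tool is not stated in what was used here. The authors deposited a single table of 21875444 CpG positions. Its deposited values are counts: per the file headers, methylated calls and coverage at each CpG, as whole numbers without normalization. Of the value columns, 0 were left unmatched. The 2 columns of a wild-type stage were summed. The wild-type libraries held 132961653 (t=0), 130555222 (day 10) and 102896335 (day 25) calls, or 6.08, 5.97 and 4.70 calls per CpG. Levels are methylated calls over all calls, with Wilson intervals of 95%.

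Tiles of 10000 bp and gene ends (RefSeq genes of GRCm38.p6) were fitted on all autosomes and X outside the first 3000000 bp of a chromosome, 243335 tiles and 19523 ends, and counted on autosomes. The test was edgeR 4.0.16 (glmQLFit and glmQLFTest in R 4.3.3) with a library term, 8 groups of genotype and stage, 12 libraries and 4 residual degrees of freedom. Limma 3.58.1 on logit values with an offset of 0.5 was an alternative. Other alternatives were a replicate block for the clones, the 9 libraries of the iPS stages, other depth minimums, other windows and tiles, the 6 wild-type columns alone and leaving out each clone library. Scripts were tested on simulated data. The levels at the t=0 mix of calls and with equal weight per CpG were added after seeing the data.

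Clones N5 and N9 are the same lines at each stage, so they pair across stages by label. The gap between N5 and N9 correlated by -0.0808 to 0.0174 between stages over 230139 tiles. Named genes follow a rule: ends with the largest passing changes, or, as none passed, the 3 largest in each direction and comparison among ends with at least 20 CpGs and both columns moving the same way; of each list the 3 with the lowest p for day 25 against t=0; and 8 genes always, which are Mir203, Dnmt1, Dnmt3a, Dnmt3b, Uhrf1, Pou5f1, Nanog and Sox2. Of the genes this rule picks, 2 are not reported here. Other list members and tiles were named after their values were seen. The samples, gene lists and rules were chosen with earlier results of these data known.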

Additional observations from a re-analysis of the deposited data

Results flagged for a closer look

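The changes of the clones and of the wild type over the same days differed by a test of the difference itself (edgeR's quasi-likelihood F test, Benjamini-Hochberg adjusted). From t=0 to day 25 this held for 463 gene ends and 149752 tiles, and from t=0 to day 10 for 1 gene end and 4 tiles. The end of day 10 is that of Tasor, a subunit of the HUSH silencing complex, at chr14:27482555-27484555, named after its values were seen. It read 39.1% at t=0 and 92.3% at day 10 in the wild type, from 46 and 39 calls. In N5 it read 81.6 and 52.5% and in N9 75.8 and 60.9%, with an adjusted p of 0.0309 by edgeR. The wild type was low at t=0 against every later stage, at 63.0% on day 25. The 4 tiles of day 10 overlap Hmcn2, Serbp1, Frmd4b and Gm15290. In the wild type they went from 40.4 to 47.0%, from 37.0 to 52.3%, from 59.9 to 74.3% and from 38.5 to 53.4%. All 4 were lower at day 10 than at t=0 in both clones. In these tests the clones' day-10 group holds the N5 library whose chromosome 8 coverage stood apart from the other clone libraries, and its part in the counts was not tested beyond leaving it out.

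Among the named genes, 6 differed at day 25 against t=0. At Syce1 the clones' change minus that of the wild type was -47.7 points. The wild type changed by 29.6 points, N5 by -16.5 and N9 by -19.9, with an adjusted p of 0.00078 by edgeR, lost in 1 of 14 alternatives. At Pecam1 the difference was -49.1 points (adjusted p 0.0221 by edgeR), and it was lost in 2 alternatives. At Dnmt1 it was -36.7 points (adjusted p 0.0281 by edgeR), where the wild type changed by 18.03 points, N5 by -12.8 and N9 by -24.4; it was lost in 3. The remaining 3 were near the threshold: Hoxa5 at -9.77 points and Rpl34-ps1 at -44.3 points (adjusted p 0.0444 by edgeR for each, lost in 8 alternatives each), and Actc1 at -38.2 points (adjusted p 0.0493 by edgeR, lost in 9, the paired fit among them). Limma was among the alternatives that lost the call in all 6. These genes were named for their wild-type values at day 25, so the direction of these differences follows in part from that choice.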

How the results depend on the processing

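No gene end passed between wild-type stages under any of the 17 alternatives. For tiles, limma called 1 at day 10 and 1 at day 25 against t=0, and the 6 wild-type columns alone 2 at day 10. With the replicate block of clones N5 and N9, a paired fit, wild-type counts were also 0, the difference from the clones at gene ends passed in 0 at day 10 and 391 at day 25, and Actc1 was lost (adjusted p 0.0546 by edgeR). The difference at gene ends of day 10 (1) was 0 with limma, 0 at starts of transcription, 2 with both ends of each gene and 0 to 3 when each clone library was left out. That of day 25 (463) was 1 with limma, 178 at starts, 3750 with both ends and 14 to 624 when each library was left out. Tiles of day 10 (4) gave 0 with limma, 9 with the 9 libraries of iPS stages, 2 with at least 100 calls, 2 in tiles of 50 kb and 0 to 1685 with a library left out. Tiles of day 25 (149752) gave 45689 in tiles of 50 kb, where fewer tiles were tested, and 130314 to 153708 with a library left out. Other causes were not tested. The spread of tile changes beyond counting error was 2.65, 2.79 and 2.82 points for day 10 and day 25 against t=0 and day 25 against day 10. It was 4.14, 4.38 and 4.29 from the first column alone and 1.601, 1.66 and 1.65 in tiles of 50 kb. The autosomal level changed by 0.706 (day 10) and 0.487 (day 25) points from t=0, by 0.413 and 0.267 at the t=0 mix of calls and by 0.310 and 0.173 with equal weight per CpG, both chosen after seeing the data. Median changes kept their direction, at 0.364 to 0.434, 0.172 to 0.248 and -0.222 to -0.137 points. Of 62 values of named genes, 8 had the other sign in the first column alone and 0 in the second. With 1 wild-type library per stage and about 5 calls per CpG, differences of single ends are limited by depth.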
